A study of Homo sapiens with 6 samples.

Results

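DROSHA and DICER1 act at successive steps of miRNA synthesis, and the cells in which each was knocked down were set against each other here. The comparison used 4 of the 6 arrays of the study, 2 from DROSHA-sh cells and 2 from DICER1-sh cells, and left the 2 control arrays out of the contrast. All groups were MDA-MB-231, a human breast cancer line of basal-like type, stably expressing a hairpin RNA that targets DROSHA (DROSHA-sh) or DICER1 (DICER1-sh), or labelled control. The titles of the DICER1-sh arrays write the line as MB23. The cells had received no other treatment per the labels. Whether the control line also held a hairpin, how many clones made up a knockdown line, and whether both arrays of a line had separate cultures behind them is not given in the labels. The p-values therefore rest on differences between arrays that may be technical only. Total RNA was hybridised as biotin-labelled cRNA to Illumina expression arrays with 47319 probes. Of these, 20595 had a detection p below 0.05 ("above background") on at least 2 of the 4 knockdown arrays and were tested, standing for 11586 named genes and 5031 unnamed probes.

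A miRNA is transcribed as a long primary transcript. DROSHA, with its RNA-binding partner DGCR8, cuts the hairpin out of that transcript in the nucleus, and the hairpin is exported to the cytoplasm, where DICER1 cuts away its loop and releases the mature strands. A cell short of DROSHA and a cell short of DICER1 are both short of an enzyme of this pathway, but at different RNAs: the primary transcript in one, the exported hairpin in the other. The design asked which mRNAs respond when miRNA synthesis is inhibited, and the contrast between the knockdowns asks where those responses differ.

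Probes for miRNA genes were among those that differed most. In DROSHA-sh cells 8 of the 54 tested exceeded DICER1-sh cells by 2-fold or more, as did 0.626% of all tested probes, and 0 lay 2-fold below, as did 0.228%. Of these 8, MIR21, MIRLET7A1, MIR181B1, MIR24-1 and MIRLET7I were below background on both DICER1-sh arrays and entered the test through the DROSHA-sh arrays alone, so the count is a description only. Where all 4 arrays detected the miRNA gene, as for 22, 2 were 2-fold higher. With no background correction, MIR24-1 (0.84), MIR185 (0.65), MIRLET7I (0.59) and MIRLET7D (0.57) were less than 1 log2 unit apart. The sequences of their miRNAs, taken from RefSeq (GRCh38.p14), are shown so that shared seeds can be seen. The seed, bases 2 to 8, is in capitals and is the part that pairs with target mRNAs. The probes themselves come with no sequence in the files used here, so where a probe lies relative to its hairpin is not known.
hsa-miR-21-5p: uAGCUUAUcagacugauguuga
hsa-let-7a-5p: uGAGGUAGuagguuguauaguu
hsa-let-7d-5p: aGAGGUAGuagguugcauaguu
hsa-let-7i-5p: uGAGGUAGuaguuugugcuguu
hsa-miR-221-3p: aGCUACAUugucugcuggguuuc
hsa-miR-181b-5p: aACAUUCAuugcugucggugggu
hsa-miR-24-3p: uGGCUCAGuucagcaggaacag
hsa-miR-185-5p: uGGAGAGAaaggcaguuccuga
Only 1 arm per gene is shown, and all of these genes but MIR21 and MIR221 have another annotated mature arm. In the arms shown, the let-7 miRNAs a, d and i carry the same seed, and the other 5 miRNAs have a seed of their own each. The 3p arms of these let-7 genes, not shown, differ in seed.

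The hairpins as annotated in RefSeq are shown for the 3 miRNA genes with the highest measured differences, with the annotated mature arms in capitals. Their ends are those of the annotation and need not be where DROSHA cuts. MIR21 lies on the plus strand at chr17:59841266-59841337, MIRLET7A1 on the plus strand at chr9:94175957-94176036 and MIR221 on the minus strand at chrX:45746157-45746266.
MIR21 hairpin: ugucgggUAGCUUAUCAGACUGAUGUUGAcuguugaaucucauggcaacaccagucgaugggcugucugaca
MIRLET7A1 hairpin: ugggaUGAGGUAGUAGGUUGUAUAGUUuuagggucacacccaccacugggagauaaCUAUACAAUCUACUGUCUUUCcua
MIR221 hairpin: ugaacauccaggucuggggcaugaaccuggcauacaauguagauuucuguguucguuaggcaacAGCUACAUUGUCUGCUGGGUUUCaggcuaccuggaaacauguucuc

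The lines matched their labels at the targeted transcripts. The brightest DROSHA probe (ILMN_1790410) had log2 intensities of 9.002 and 8.980 in DROSHA-sh cells and 11.40 and 10.81 in DICER1-sh cells, with 11.58 and 10.91 in control cells. The DROSHA-sh arrays lay below all others, and the log2 difference (DROSHA-sh minus DICER1-sh throughout) was -2.12 with a standard error of 0.27, 4.33-fold lower. The weaker DROSHA probe (ILMN_2152095) gave -1.44, but its DROSHA-sh values of 5.749 and 5.755 stood near the lowest detected values of those arrays, 5.745 and 5.734, so that its difference depends on the background correction. The brightest DICER1 probe (ILMN_1772692) had 10.36 and 10.27 in DROSHA-sh cells and 8.41 and 8.66 in DICER1-sh cells, with 10.55 and 9.36 in control cells, a log2 difference of 1.78 (SE 0.22) with no overlap. The other DICER1 probe (ILMN_2349831) gave 1.81 (SE 0.36). These are levels in RNA of whole cultures, where fewer cells with a transcript and less of it per cell cannot be told apart.

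No probe passed the test. In limma, fitted on the 4 arrays with Benjamini-Hochberg adjustment over 20595 probes, 0 probes (0%) had an adjusted p below 0.05, the smallest being 0.252, and 946 (4.59%) had an unadjusted p below 0.05, where 1029.75 would be expected with no difference. Values are therefore given per array, and a gene is called separated only where the 2 arrays of one group both lay above the 2 of the other. Such separation occurred for 16.2% of tested probes with DROSHA-sh higher and for 16.9% with DROSHA-sh lower. A log2 difference of 1 or more, 2-fold, was reached by 129 probes (0.626%) on the higher side and by 47 (0.228%) on the lower side. For the 129 higher probes, the control mean lay nearer DICER1-sh in 66 and nearer DROSHA-sh in 63, and for the 47 lower ones nearer DICER1-sh in 26 and nearer DROSHA-sh in 21. Of these 176 probes, 55 have no gene name.

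The arrays of the groups were not equally close to each other. The median absolute log2 difference over tested probes was 0.15 between the DROSHA-sh arrays and 0.41 between the DICER1-sh arrays, with 0.52 between the control arrays, and 0.20 between the DROSHA-sh and DICER1-sh means. Each DICER1-sh array correlated more closely with both DROSHA-sh arrays (Pearson r 0.9775 to 0.9792 across probes) than with its partner (0.9581), whereas the DROSHA-sh arrays correlated at 0.9924. All 6 arrays carried the name of the same chip, and their positions on it followed the groups, so position and group cannot be told apart.

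**Figure D1:**
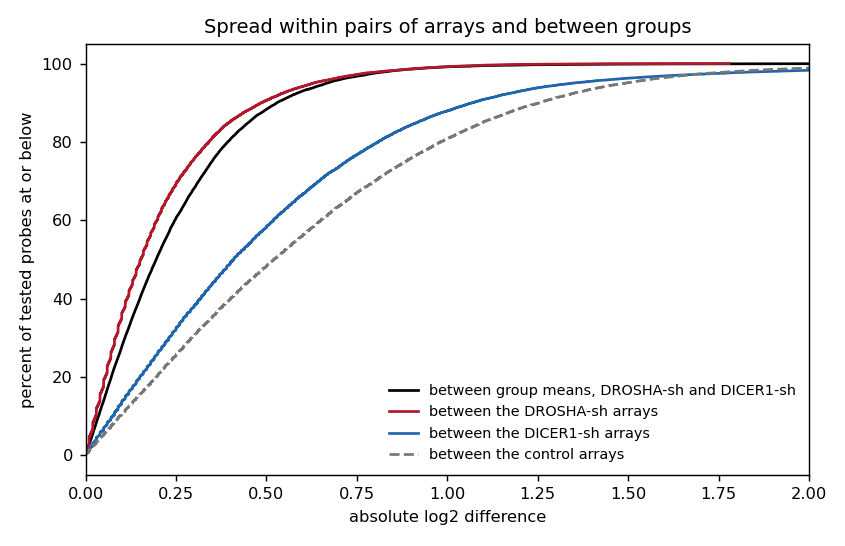
Cumulative share of the 20595 tested probes (vertical axis, percent) at or below an absolute log2 difference (horizontal axis, cut at 2). Lines stand for the difference between the DROSHA-sh and DICER1-sh means and between the arrays within each group; the DROSHA-sh pair has a median of 0.15, the difference between means 0.20, the DICER1-sh pair 0.41 and the control pair 0.52.

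MIR21, whose miRNA is abundant in epithelial tumours, had the smallest p of all probes. It stood at 8.40 and 8.67 in DROSHA-sh cells and at 4.82 and 4.97 in DICER1-sh cells, with 5.19 and 4.84 in control cells. Neither the DICER1-sh nor the control arrays were above background, so the measured log2 difference of 3.64 (SE 0.23) is given as a bound, DROSHA-sh cells being at least 7.12-fold higher (adjusted p = 0.252 in limma). Such a bound sets the mean of the brighter group against, per array of the dimmer group, the higher of the probe's own value and the lowest value among detected probes. Every bound given as "at least" holds for the processing used here only. Over the alternatives described below, the lowest log2 differences were 1.95 for MIR21, 1.18 for MIRLET7A1 and 1.08 for MIR181B1. These lie under the log2 values of their bounds, 2.83, 1.94 and 1.46. With all 6 arrays in the fit the smallest adjusted p was 0.0765.

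Genes of the let-7 family, which encode tumour-suppressing miRNAs of a shared seed, differed among themselves. MIRLET7A1 had 7.88 and 7.41 in DROSHA-sh cells and 5.24 and 5.04 in DICER1-sh cells, with 5.25 and 4.79 in control cells, at least 3.85-fold higher (measured log2 difference 2.51, SE 0.26, adjusted p = 0.640 in limma). MIRLET7D had 6.93 and 7.07 in DROSHA-sh cells and 5.36 and 5.95 in DICER1-sh cells, a log2 difference of 1.35 (SE 0.28). MIRLET7I, which lies on another chromosome, had 6.31 and 5.87 in DROSHA-sh cells and 4.93 and 4.79 in DICER1-sh cells, at least 1.30-fold higher. Both DROSHA-sh arrays were above background for all 3 genes, while of the DICER1-sh arrays 1 was so for MIRLET7D and none for the others. MIRLET7F1, named after its value was seen because it lies in the same cluster as MIRLET7A1 and MIRLET7D, had 6.34 and 5.94 in DROSHA-sh cells and 5.27 and 5.23 in DICER1-sh cells. Both DICER1-sh arrays were below background, so DROSHA-sh cells were at least 1.35-fold higher, and control cells, at 5.79 and 6.55, were as high as DROSHA-sh cells. MIR98, also of the let-7 family and named after its value was seen, was above background on all 4 arrays and overlapped, with 7.93 and 7.79 in DROSHA-sh cells and 8.44 and 7.36 in DICER1-sh cells (-0.04, SE 0.39).

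MIR221 had the highest difference among miRNA genes above background on every array. It had 9.66 and 9.59 in DROSHA-sh cells and 6.99 and 7.49 in DICER1-sh cells, with 8.15 and 7.54 in control cells, a log2 difference of 2.39 (SE 0.26) or 5.23-fold. Control cells lay closer to DICER1-sh cells, and the nearest arrays of DROSHA-sh and DICER1-sh cells were 2.10 log2 units apart. MIR185 was also above background on all arrays, at 7.53 and 7.53 in DROSHA-sh cells and 6.41 and 6.01 in DICER1-sh cells (1.32, SE 0.24).

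MIR181B1 stood at 7.17 and 7.16 in DROSHA-sh cells and at 4.80 and 4.91 in DICER1-sh cells, where it was below background, at least 2.75-fold higher. MIR181A1, its neighbour in the same cluster, was named after its value was seen and did not separate the groups, at 6.79 and 5.57 in DROSHA-sh cells and 5.77 and 5.30 in DICER1-sh cells. MIR24-1 had 7.04 and 6.68 in DROSHA-sh cells and 4.92 and 5.01 in DICER1-sh cells, at least 2.23-fold higher. For MIR181B1, MIR24-1, MIR185 and MIRLET7I the control arrays lay beside the DICER1-sh arrays, the control means being 4.86, 4.89, 6.13 and 4.91.

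Most miRNA gene probes were dim or less than 2-fold apart. The array carries 560 miRNA genes, of which 469 were above background on none of the 4 arrays and 54 were tested. Among these 54, none was 2-fold lower, the lowest being MIR373 at -0.60, named after its value was seen. A probe could enter the test through the DROSHA-sh arrays alone, as 9 did, whereas 2 entered through the DICER1-sh arrays alone. Of the 22 above background on all 4 arrays, 13 had a difference above 0, as 51.5% of all tested probes did, and the median difference was 0.04. Of these 22, 5 were separated with DROSHA-sh higher and 3 with DROSHA-sh lower, against 16.2% and 16.9% of all tested probes. Over all 560 genes without the filter, 281 differences were above 0 and the median was 0.00, while 8 were 2-fold higher and 0 were 2-fold lower. The large differences were thus held by few genes.

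**Figure D2:**
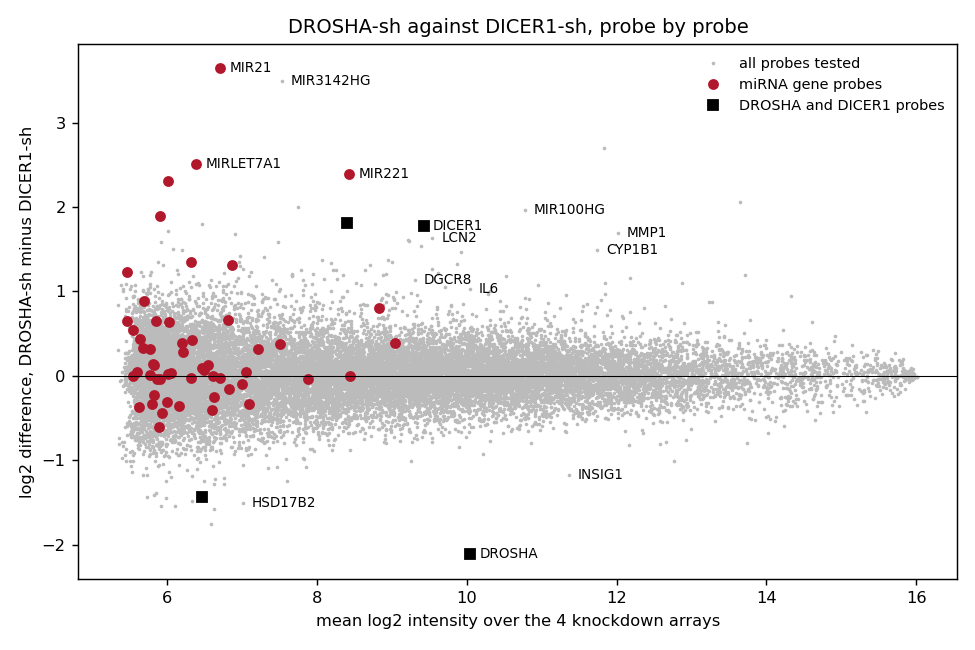
Log2 difference, DROSHA-sh minus DICER1-sh (vertical axis), against the mean log2 intensity over the 4 knockdown arrays (horizontal axis), one point per tested probe. Red circles are the 54 miRNA gene probes and black squares the DROSHA and DICER1 probes; MIR21 is drawn at 3.64 and the miRNA host transcript MIR3142HG at 3.50, measured values that rest on 2 and 1 DICER1-sh arrays below background, and DROSHA stands lowest at -2.12.

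The genes around these miRNA genes did not all differ as the miRNA probes did. VMP1, a membrane protein of autophagy whose gene holds MIR21, had 11.77 and 11.83 in DROSHA-sh cells and 11.52 and 12.02 in DICER1-sh cells, a log2 difference of 0.03 (SE 0.26) with overlap. TANGO2, which holds MIR185, was at 0.17 (SE 0.42), and MON2, which lies within 10 kb (a window of 10000 bases) of MIRLET7I, was at -0.06 (SE 0.23), both with overlap. These neighbours other than AOPEP were chosen from RefSeq positions after the miRNA values were seen. AOPEP, an aminopeptidase whose gene holds MIR24-1, had 9.55 and 9.42 in DROSHA-sh cells and 8.92 and 8.18 in DICER1-sh cells, with 7.71 and 8.71 in control cells. Its difference of 0.94 (SE 0.31) separated the groups.

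By place in the annotation, 15 of the 54 tested miRNA genes lie inside a long noncoding RNA or another non-coding gene only, 29 inside a protein-coding gene and 10 inside neither. The median log2 difference was 0.65 in the first group, with 5 genes 2-fold higher and 7 separated upwards and 0 downwards. It was 0.04 in the second, with 3 genes 2-fold higher and 8 separated upwards and 3 downwards. In the third it was 0.31, with 0 genes 2-fold higher and 1 separated upwards and 2 downwards. Over all tested probes, 0.626% were 2-fold higher, 16.2% were separated upwards and 16.9% downwards. Place was read on either strand, and these counts by place describe the genes that passed the filter and were not tested.

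A long noncoding transcript that carries a miRNA gave the highest measured difference outside the miRNA gene probes. MIR3142HG, the host transcript of miR-146a, had 9.02 and 9.55 in DROSHA-sh cells and 6.10 and 5.47 in DICER1-sh cells, with 6.55 and 5.48 in control cells. The measured difference of 3.50 (SE 0.33) was 11.3-fold, with the lower DICER1-sh array below background, and the lower DROSHA-sh array lay far above the higher of the other 4. MIR100HG, the host of miR-100, let-7a-2 and miR-125b-1, had 11.66 and 11.85 in DROSHA-sh cells and 9.84 and 9.75 in DICER1-sh cells, with 9.93 and 9.41 in control cells, 3.89-fold higher at a log2 difference of 1.96 (SE 0.21). All 6 MIR100HG values lay well above the background. The probe of MIR100 itself, whose gene lies in MIR100HG and which was named after its value was seen, stood close to the background at 5.82 and 5.77 in DROSHA-sh cells and below it at 5.09 and 5.21 in DICER1-sh cells.

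MIR99AHG, the host of miR-99a and let-7c, was named after its value was seen. It had 6.58 and 6.90 in DROSHA-sh cells and 6.20 and 5.16 in DICER1-sh cells (1.06, SE 0.39), the lower of which was below background. MIR125B2, a tested miRNA gene that lies in MIR99AHG, overlapped between the groups at -0.02 (SE 0.29). MIR125B2 was also named after its value was seen. Across the 27 tested genes of the host list, 7 were separated with DROSHA-sh higher and 7 with DROSHA-sh lower, 25.9% each, against 14.8% and 17.8% of all 11586 genes taken by their brightest probe, and the median was 0.03. The lower members included the pantothenate kinase genes PANK1 at -0.70 and PANK3 at -0.56, which hold members of the miR-103 and miR-107 family. These were named after their values were seen.

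**Figure D3:**
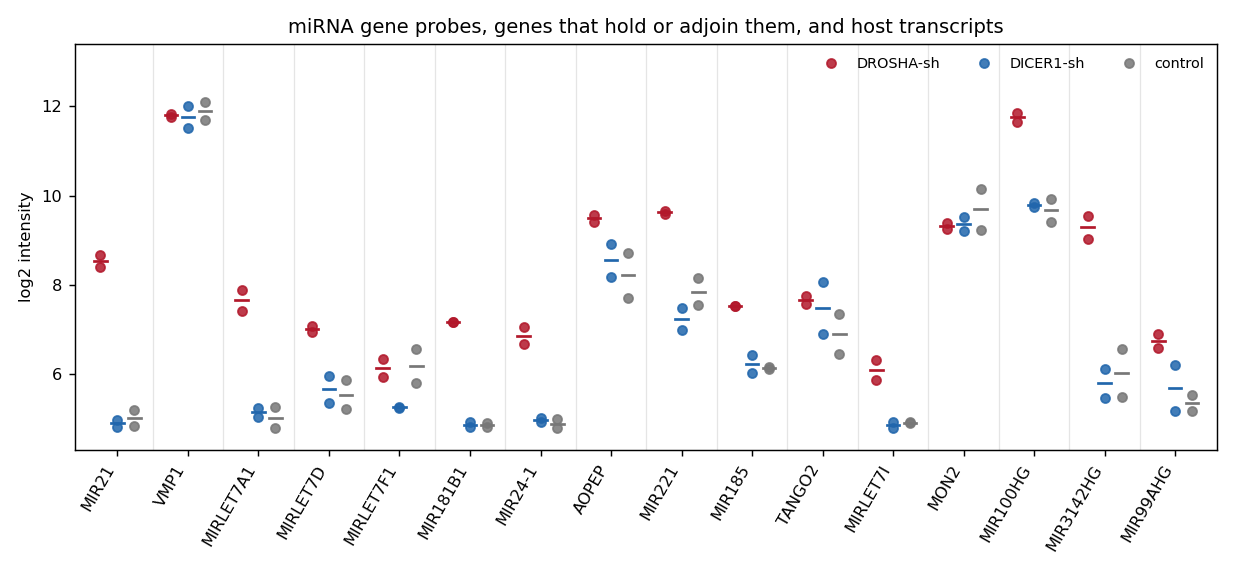
Log2 intensity (vertical axis) per array for miRNA genes, genes that hold or adjoin them, and miRNA host transcripts; points are arrays, bars the mean of 2, with DROSHA-sh left, DICER1-sh in the middle and control right. MIR21 stands at 8.40 and 8.67 in DROSHA-sh cells against 4.82 and 4.97 in DICER1-sh cells, while its holder VMP1 overlaps between the groups.

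Among the other genes of miRNA processing, DGCR8 differed most. DGCR8 had 9.86 and 9.88 in DROSHA-sh cells and 9.02 and 8.46 in DICER1-sh cells, with 8.58 and 8.87 in control cells. Its difference of 1.13 (SE 0.27) was 2.19-fold, and both DROSHA-sh arrays lay above the other 4. TSN, a subunit of the complex that removes passenger strands, was at -0.62 (SE 0.21) with separation. XPO5, which exports the hairpin, was at -0.05 (SE 0.22), TARBP2, the partner of DICER1, at -0.13 (SE 0.25), and AGO2, the slicing Argonaute, at 0.36 (SE 0.43), all with overlap. TSN, XPO5, TARBP2 and AGO2 were named after their values were seen. Of the 23 tested genes of this list, 5 (21.7%) were separated upwards and 4 (17.4%) downwards, DICER1 and DROSHA among them, against 14.8% of all genes upwards and 17.8% downwards, and 0 passed the test.

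Lists of published targets were at hand for let-7, for miR-21, for miR-221 with miR-222, and for miR-200, and not for the other miRNAs shown above. Of 17 tested let-7 targets, 5 (29.4%) were separated with DROSHA-sh higher and 4 (23.5%) with DROSHA-sh lower, against 14.8% and 17.8% of all genes, with a median of 0.06. The highest was DICER1 itself, the target of a hairpin, and the lowest was E2F2, a cell cycle activator, at 8.92 and 8.93 in DROSHA-sh cells and 9.68 and 9.65 in DICER1-sh cells (-0.74, SE 0.20). HMGA2, a chromatin protein with many let-7 sites, was at 0.21 (SE 0.21). Of 13 miR-21 targets, 0 were separated upwards and 3 (23.1%) downwards, with a median of -0.09. PDCD4, an inhibitor of translation, was at -0.12 (SE 0.22), and TIMP3, an inhibitor of metalloproteases, had 10.60 and 10.56 in DROSHA-sh cells and 11.41 and 10.94 in DICER1-sh cells (-0.59, SE 0.25). HMGA2 and PDCD4 were named after their values were seen.

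Of 12 targets of miR-221 and miR-222, 1 (8.33%) was separated upwards and 3 (25.0%) downwards, against 14.8% and 17.8% of all genes. Their median was -0.15. CDKN1B, the cyclin-dependent kinase inhibitor p27, was at -0.29 (SE 0.28) with overlap. Of 9 factors of the miR-200 and epithelial-mesenchymal axis, 1 (11.1%) was separated each way. No member of these 4 target lists passed the test.

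Among the protein-coding genes named for the size of their difference, MMP1 and LCN2 were separated with DROSHA-sh higher. MUC1, named from the luminal breast list, was so too. MMP1, the interstitial collagenase, had 12.89 and 12.84 in DROSHA-sh cells and 10.97 and 11.36 in DICER1-sh cells, with 12.57 and 12.16 in control cells. The difference of 1.70 (SE 0.24) was 3.25-fold, and the control arrays stood near the DROSHA-sh arrays. LCN2, a siderophore-binding protein of inflammation, had 10.26 and 10.46 in DROSHA-sh cells and 9.16 and 8.28 in DICER1-sh cells (1.64, SE 0.35), and control cells, at 8.19 and 9.74, had a wider spread than DICER1-sh cells. MUC1, a membrane mucin, had 8.79 and 8.91 in DROSHA-sh cells and 7.61 and 7.58 in DICER1-sh cells, with 8.72 and 8.26 in control cells (1.26, SE 0.21). MMP1 and MUC1 were thus genes for which the DICER1-sh arrays were the low ones.

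Of 22 tested metalloproteases, ADAMs and TIMPs, 7 (31.8%) were separated upwards and 4 (18.2%) downwards, against 14.8% of all genes upwards and 17.8% downwards, with a median of 0.12. MMP24, a membrane-type metalloprotease, was at least 1.27-fold higher, its DICER1-sh arrays being below background. MMP16, another of that type, had DROSHA-sh arrays below background at 5.31 and 5.36 and DICER1-sh arrays at 5.85 and 6.15, at least 1.20-fold lower.

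NF-kB targets and cytokines formed the list with the highest median of the 36 lists described. Of 29 tested members, 16 (55.2%) were separated with DROSHA-sh higher and 2 (6.9%) with DROSHA-sh lower, against 14.8% and 17.8% of all genes, and 0 passed the test. The median difference was 0.40, against 0.00 over all genes, and lay between 0.27 and 0.64 when each array was left out in turn. The median log2 level of the list was 8.66 and 8.67 on the DROSHA-sh arrays and 8.42 and 7.84 on the DICER1-sh arrays, with 7.75 and 8.07 on the control arrays. Taken gene by gene, the median of array 1 minus array 2 was -0.02 for DROSHA-sh, 0.18 for DICER1-sh and -0.34 for control cells.

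IL6, an inflammatory cytokine, had 10.34 and 10.77 in DROSHA-sh cells and 9.72 and 9.34 in DICER1-sh cells, with 8.97 and 9.72 in control cells (1.03, SE 0.27). IL1A, which signals through the interleukin-1 receptor, had 6.97 and 6.99 in DROSHA-sh cells and 5.94 and 6.20 in DICER1-sh cells (0.91, SE 0.22). IL32, a cytokine of epithelial cells and lymphocytes, had 7.21 and 7.14 in DROSHA-sh cells and 6.37 and 6.19 in DICER1-sh cells (0.90, SE 0.21), though its weaker probe (ILMN_1778010) was at -0.02. CXCL8, a neutrophil chemokine named after its value was seen, was the highest member, at 12.17 and 12.63 in DROSHA-sh cells and 10.99 and 11.62 in DICER1-sh cells (1.10, SE 0.32). For CXCL8 the control arrays, at 12.01 and 11.73, lay between the groups. NFKB1 at -0.23 and IL11 at -0.47, the members separated downwards, were also named after their values were seen.

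Replication-dependent histones, whose mRNAs normally lack a poly(A) tail, also stood mostly higher. Of 22 tested genes, 10 (45.5%) were separated upwards and 1 (4.55%) downwards, against 14.8% and 17.8% of all genes. The median of 0.32 lay between 0.23 and 0.39 when each array was left out. H2BC5 had 10.59 and 10.95 in DROSHA-sh cells and 9.84 and 9.77 in DICER1-sh cells, with 8.80 and 9.63 in control cells (0.97, SE 0.23), and its other probe (ILMN_1758623) gave 0.83. H1-2, a linker histone, had 11.13 and 11.26 in DROSHA-sh cells and 10.47 and 10.32 in DICER1-sh cells (0.80, SE 0.21). H4C8 was at 0.78 (SE 0.21). The histone list's median level was 7.82 and 7.70 on the DROSHA-sh arrays and 7.49 and 7.33 on the DICER1-sh arrays, while the control arrays stood at 6.501 and 7.406. Histone genes share long stretches of sequence, so that a probe may read more than one of them.

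Genes of the cell cycle and DNA replication lay the other way. Of 58 tested members, 0 were separated with DROSHA-sh higher and 28 (48.3%) with DROSHA-sh lower, against 14.8% and 17.8% of all genes. The median was -0.20, and -0.27 to -0.20 when each array was left out. The median level was 11.48 and 11.46 on the DROSHA-sh arrays and 11.75 and 11.68 on the DICER1-sh arrays, with 11.99 and 11.68 on the control arrays. KIF11, a mitotic spindle motor, had 10.49 and 10.83 in DROSHA-sh cells and 11.15 and 11.45 in DICER1-sh cells (-0.64, SE 0.25), and its other probe (ILMN_1794539) gave -0.63. CENPF, a kinetochore protein, had 11.40 and 11.49 in DROSHA-sh cells and 11.92 and 12.02 in DICER1-sh cells (-0.53, SE 0.21). E2F2, given above, was the lowest member. MKI67, the proliferation antigen named after its value was seen, overlapped at -0.10 (SE 0.32). CDKN1A, the kinase inhibitor p21, stood on the other side, at 12.13 and 12.04 in DROSHA-sh cells and 11.65 and 11.02 in DICER1-sh cells (0.75, SE 0.28).

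**Figure D4:**
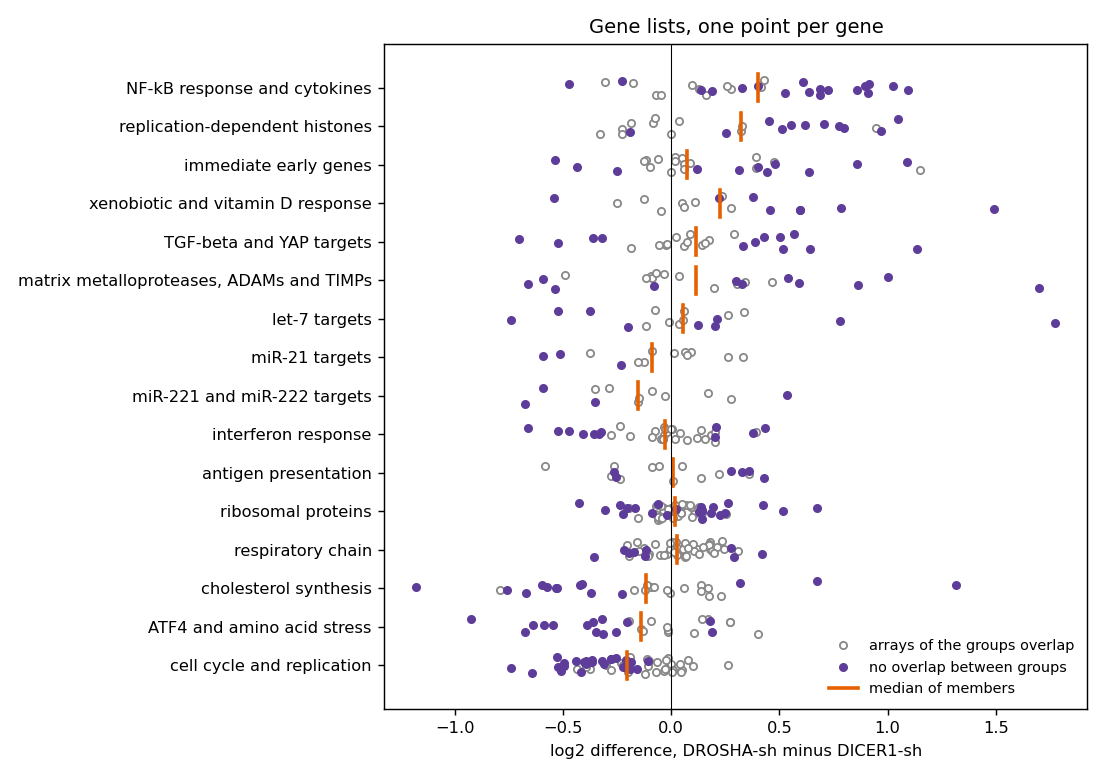
Log2 difference, DROSHA-sh minus DICER1-sh (horizontal axis), for each tested member of 16 gene lists (vertical axis), one point per gene by its brightest probe; filled points are genes whose groups did not overlap, open points overlap, and the bar is the median. NF-kB and cytokine genes have a median of 0.40 and cell cycle genes one of -0.20, while ribosomal proteins and the respiratory chain lie around 0.

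Genes of sterol and fatty acid synthesis and transport lay on both sides. Of 28 tested members, 3 (10.7%) were separated upwards and 11 (39.3%) downwards, against 14.8% of all genes upwards and 17.8% downwards, with a median of -0.11, and -0.30 to -0.15 when each array was left out. INSIG1, the sterol-sensing anchor of SREBP processing, had 10.58 and 10.97 in DROSHA-sh cells and 11.75 and 12.15 in DICER1-sh cells, with 12.76 and 11.72 in control cells (-1.18, SE 0.27), and its weaker probe (ILMN_1686989) gave -0.40. FASN, the fatty acid synthase, had 12.38 and 12.73 in DROSHA-sh cells and 13.43 and 13.19 in DICER1-sh cells (-0.76, SE 0.24). ABCG1, a cholesterol exporter named after its value was seen, had 8.03 and 8.13 in DROSHA-sh cells and 8.94 and 8.55 in DICER1-sh cells (-0.67, SE 0.24). ABCA1, another cholesterol exporter, was separated upwards with 9.19 and 9.56 in DROSHA-sh cells and 7.91 and 8.20 in DICER1-sh cells, against 8.22 and 7.54 in control cells (1.32, SE 0.25). SREBF2, the sterol regulator whose gene holds miR-33a, was at 0.68 (SE 0.27), with 6.46 and 6.56 in DROSHA-sh cells and 6.11 and 5.57 in DICER1-sh cells, and was named after its value was seen. Its lower DICER1-sh array was below background.

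Amino acid stress genes driven by ATF4 resembled the sterol genes in counts. Of 27 tested members, 2 (7.41%) were separated upwards and 12 (44.4%) downwards, against 14.8% and 17.8% of all genes, and the median was -0.14. NUPR1, a stress-induced chromatin protein, had 9.70 and 9.81 in DROSHA-sh cells and 11.14 and 10.23 in DICER1-sh cells (-0.93, SE 0.35), and control cells, at 9.25 and 10.44, enclosed the DROSHA-sh values. PHGDH, the first enzyme of serine synthesis, had 12.004 and 12.038 in DROSHA-sh cells and 12.83 and 12.49 in DICER1-sh cells (-0.64, SE 0.23). CTH, an enzyme of cysteine synthesis, had 9.12 and 9.19 in DROSHA-sh cells and 9.74 and 9.74 in DICER1-sh cells (-0.58, SE 0.21).

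Genes that respond to xenobiotics, oxidants and vitamin D stood mostly higher. Of 16 tested members, 7 (43.8%) were separated upwards and 1 (6.25%) downwards, against 14.8% and 17.8% of all genes. The median of 0.23 was 0.09 to 0.29 when each array was left out. CYP1B1, a monooxygenase induced through the aryl hydrocarbon receptor, had 12.61 and 12.36 in DROSHA-sh cells and 10.76 and 11.22 in DICER1-sh cells, with 11.38 and 11.40 in control cells (1.49, SE 0.26). AKR1B10, an aldo-keto reductase, was at 0.79 (SE 0.29), and HMOX1, the haem-degrading oxygenase, at 0.60 (SE 0.23).

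Among 26 immediate early genes, 8 (30.8%) were separated upwards and 3 (11.5%) downwards, against 14.8% of all genes upwards and 17.8% downwards, with a median of 0.07. EGR1, a serum-induced transcription factor, had 9.39 and 9.25 in DROSHA-sh cells and 8.48 and 7.97 in DICER1-sh cells, with 8.10 and 8.14 in control cells (1.09, SE 0.26). FOSB, a partner of JUN, had 6.90 and 6.93 in DROSHA-sh cells and 6.03 and 6.08 in DICER1-sh cells (0.86, SE 0.20). DUSP4, a phosphatase of MAP kinases named after its value was seen, had the highest mean difference of the list, 1.15, but DICER1-sh arrays of 5.92 and 9.13 enclosed the DROSHA-sh arrays of 8.76 and 8.59.

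Targets of TGF-beta and YAP were separated upwards in 8 of 24 (33.3%) and downwards in 4 of 24 (16.7%), against 14.8% of all genes upwards and 17.8% downwards, with a median of 0.11. PMEPA1, an inhibitor of TGF-beta signalling that TGF-beta induces, had 7.90 and 8.05 in DROSHA-sh cells and 6.71 and 6.97 in DICER1-sh cells (1.13, SE 0.22), and its other probe (ILMN_2309156) gave 0.86. SMAD6, an inhibitor of BMP signalling, was at -0.70 (SE 0.26). WWTR1, also known as TAZ, a co-activator alongside YAP, is not in this list and was named for the size of its difference. It had 5.88 and 6.18 in DROSHA-sh cells and 7.10 and 7.42 in DICER1-sh cells (-1.22, SE 0.24). Its DROSHA-sh values stood close to the lowest detected values on those arrays. One control array stood near each knockdown, at 7.83 and 6.10.

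Other genes named for the size of their difference belong to no list. ATP5MK, a small subunit of the mitochondrial ATP synthase, had 8.67 and 8.84 in DROSHA-sh cells and 7.12 and 6.39 in DICER1-sh cells, with 5.69 and 6.89 in control cells (2.00, SE 0.31). The 50 tested respiratory chain genes beside it had a median of 0.03. Of them, 3 (6%) were separated upwards and 6 (12%) downwards, against 14.8% and 17.8% of all genes. On the lower side, HSD17B2, an oestradiol-oxidising dehydrogenase, had 6.04 and 6.49 in DROSHA-sh cells and 8.002 and 7.529 in DICER1-sh cells (-1.50, SE 0.29). CIT, the citron kinase of cytokinesis, had 6.75 and 7.22 in DROSHA-sh cells and 8.18 and 8.27 in DICER1-sh cells (-1.24, SE 0.25).

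PDE7B, a cyclic AMP phosphodiesterase, had 5.81 and 5.93 in DROSHA-sh cells and 7.09 and 7.14 in DICER1-sh cells, with 7.03 and 6.75 in control cells (-1.25, SE 0.21). Its DROSHA-sh values stood close to the background. NOS3, the endothelial nitric oxide synthase, at -1.49 (SE 0.30), TLR4, the receptor for bacterial lipopolysaccharide, at -1.28 (SE 0.33), and ZNF184, a zinc finger protein, at -1.29 (SE 0.28) also lay within 1 log2 unit of the lowest detected values on the DROSHA-sh arrays. The same held for HSD17B2 and WWTR1, given above, whose log2 differences came as close to 0 as -0.78 and -0.57 over the alternatives. For NOS3 and TLR4 the lower DROSHA-sh array, at 5.41 and 5.61, was below background. Among genes below background on both DROSHA-sh arrays and above it on both DICER1-sh arrays, UACA was at least 1.78-fold and HCG27 at least 1.71-fold lower in DROSHA-sh cells.

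For 8 genes named by size, another probe of the same gene stood closer to 0. PLD3 (at least 2.25-fold higher), PPT2 (1.80) and CLEC2D (1.61) had other probes at 0.08, 0.22 and 0.01. On the lower side TTLL11 (-1.75), SIRT5 (at least 1.94-fold lower), ANKZF1 (-1.45), MIER1 (at least 1.76-fold lower) and MCTP1 (at least 1.71-fold lower) had other probes between -0.67 and 0.03. PPT2 was below background on 1 DICER1-sh array, and TTLL11 and ANKZF1 on 1 DROSHA-sh array. These values are given for the probe and not for the gene. Over all genes, 77 had a brightest probe that was 2-fold apart and separated, and of the 13 other probes that 12 of them had, 12 were separated in the same direction.

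**Figure D5:**
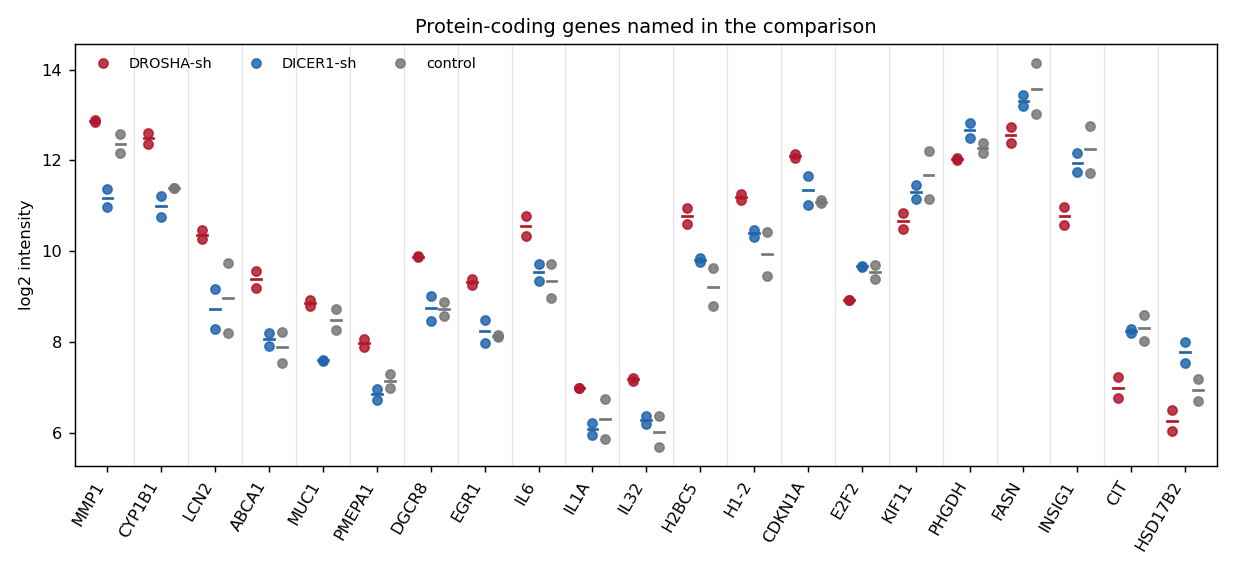
Log2 intensity (vertical axis) per array for 21 protein-coding genes; points are arrays and bars the mean of 2, with DROSHA-sh left, DICER1-sh in the middle and control right. MMP1 at 12.89 and 12.84 and IL6 at 10.34 and 10.77 lie higher in DROSHA-sh cells, and E2F2, FASN and INSIG1 lower, while the control arrays of LCN2, at 8.19 and 9.74, enclose its DICER1-sh arrays.

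The cells carried the markers of their line on all 4 arrays. VIM, CD44, EGFR, FOSL1, AXL and CAV1 were above background on every knockdown array, and ESR1, PGR and CDH1 on none, whereas ERBB2 (9.93 to 10.26) and EPCAM (10.05 to 10.36), listed as low or absent, were detected on every array and GATA3, listed likewise, on 3 of the 4. Of the markers of other cells, 5 of 13 leukocyte, 1 of 10 fibroblast, 1 of 7 melanocytic and 1 of 8 HEK293 genes were above background on all 4 arrays. These were CD14, CD68, LYZ, CD79A and CSF1R for leukocytes, and S100A4, MITF and CDH2 for the other lists in turn. In the same order, 7, 6, 6 and 5 genes were above background on none, PTPRC, PDGFRB, MLANA and LIN28B among them. The log2 of the summed intensity was 12.27 and 12.40 in DROSHA-sh cells and 12.45 and 12.17 in DICER1-sh cells for the leukocyte list. For the fibroblast list it was 12.87 and 13.03 in DROSHA-sh cells and 13.30 and 12.71 in DICER1-sh cells, and for the HEK293 list 8.45 and 8.76 in DROSHA-sh cells and 8.51 and 8.42 in DICER1-sh cells. The melanocytic list, at 9.26 and 9.29 in DROSHA-sh cells and 9.59 and 9.36 in DICER1-sh cells, was the only one of these 4 that did not overlap, and only MITF of its 7 genes was above background. CD68 alone, at 11.9 to 12.21, made up most of the leukocyte sum, and S100A4 alone, at 12.64 to 13.24, most of the fibroblast sum. Each of these sums thus mostly followed that gene. The part of other cells in the results was not tested.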

How the data were processed

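Expression was measured on 6 Illumina arrays of MDA-MB-231 cells, 2 each for DROSHA-sh, DICER1-sh and control cells, grouped by the labels. The authors deposited a table of mean bead intensity per probe and array, unscaled between arrays, with its detection p-value in steps of 1/770, per the file headers and values. A second table that the authors deposited holds background-subtracted intensity on a linear scale with nearly equal distributions on all arrays. GenomeStudio is named in the submitters' processing notes, and its version is not given in the sources used here.

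Here the first table was background-corrected with normexp through the detection p-values (offset 16), quantile-normalized over all 6 arrays and put on the log2 scale (neqc, limma 3.58.1, R 4.3.3). Probes with a detection p below 0.05 on at least 2 of the 4 knockdown arrays were fitted with lmFit and eBayes on those 4 arrays, two-sided, with 2 residual degrees of freedom and 3.19 borrowed across probes. Every adjusted p is limma's, adjusted over all 20595 tested probes. Detected probes per array numbered 19877 to 21026 (42.0% to 44.4%), and with arrays the precision is limited by how many there are. The fit was tested on simulated data in which all arrays had the same spread, unlike the DROSHA-sh and DICER1-sh arrays here.

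Platform annotation gave 30112 probes 1 symbol, 8 several and 17199 none, and 30073 were updated through RefSeq (GRCh38.p14). A gene stands by the probe with the highest mean over the 4 arrays, and 3156 genes had several tested probes. All 8 miRNA genes that are 2-fold apart were found in the RefSeq sequence table. Probe levels were compared within a probe only. The genes named were all DROSHA and DICER1 probes; the 10 highest and 10 lowest separated probes with an unadjusted p below 0.05; up to 5 bounds each way; up to 3 members with the smallest p per list; and miRNA genes at least 2-fold apart. Others are said to be named after their values were seen. The comparison, its members and the 36 gene lists were chosen with earlier results of these data known. Alternatives changed the arrays fitted, background correction, normalization, filter, feature, table, array weights, a replicate block, and left out each array.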

Additional observations from a re-analysis of the deposited data

How the results depend on the processing

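No probe passed the threshold under any alternative except the replicate block, which called 4 probes, all higher in DROSHA-sh cells: MIR21 (adjusted p = 0.00556 in limma), MIR3142HG (0.0172), MIRLET7A1 (0.0459) and 1 unnamed probe. The labels give the arrays a replicate number and do not say whether same-numbered arrays belong together, so no pairing was assumed. The correlation of same-numbered deviations across probes was 0.02. With so few arrays per group, this correlation cannot show whether the arrays were paired. With all 6 arrays in the fit the smallest adjusted p was 0.0765.

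The count of probes at least 2-fold apart, 129 higher and 47 lower, moved to 27 and 2 with no background correction, 55 and 9 with an offset of 50, 73 and 19 for probes detected on all 4 arrays, and 476 and 339 in the authors' processed table. With each array left out it lay between 171 and 779 on the higher side and between 97 and 467 on the lower side; it was 295 and 467 without DICER1-sh 1 and 779 and 219 without DICER1-sh 2. The cause was not tested.

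Of the 126 named probes, 114 kept their direction under every alternative that could be run. The other 12 changed sign when 1 array was left out, and their lowest and highest log2 differences over these fits are given. Leaving out DICER1-sh 2 turned FOSL1 (-0.090 to 0.87), SPANXA2 (-0.053 to 0.38), CD79A (-0.061 to 0.35), PAX8 (-0.39 to 0.66) and SPANXC (-0.11 to 0.37) negative. Leaving out DICER1-sh 1 turned MS4A1 (-0.47 to 0.038), CDKN1C (-0.76 to 0.061) and HLA-DPA1 (-1.18 to 0.013) positive. KRT10 (-0.036 to 0.49) turned without DROSHA-sh 1 or DICER1-sh 2, COL1A2 (-0.59 to 0.80) without DROSHA-sh 2 or DICER1-sh 2, S100A4 (-0.37 to 0.24) without DROSHA-sh 1 or DICER1-sh 1, and EYA1 (-0.83 to 0.41) without DROSHA-sh 1. The cause was not tested. MIR21 kept a log2 difference between 1.95 and 4.47, and MIR100HG one between 1.83 and 2.06. Fits that leave an array out assume that the lone array of its group varies like the other group.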

Other observations

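Other gene groups showed smaller or mixed differences, and none held a member that passed the test. The counts of separated members stand against 14.8% of all genes upwards and 17.8% downwards. Claudins and other junction genes were separated upwards in DROSHA-sh cells in 6 of 22 and downwards in 1 of 22, with a median log2 difference of 0.11. JUP, the junction protein plakoglobin, had 8.80 and 8.66 in DROSHA-sh cells and 8.39 and 7.46 in DICER1-sh cells. Its weaker probe (ILMN_1741970) lay the other way, at -0.29 with overlap. ELF3, an epithelial transcription factor, had 8.26 and 8.36 in DROSHA-sh cells and 7.48 and 7.90 in DICER1-sh cells. CLDN3, a tight junction protein, was below background on both DROSHA-sh arrays, at least 1.09-fold lower. Of 32 genes of hypoxia and glycolysis, 9 were separated upwards and 3 downwards, with a median of 0.03. ALDOA, a glycolytic aldolase, had 13.80 and 13.62 in DROSHA-sh cells and 12.44 and 13.23 in DICER1-sh cells, and ANGPTL4, a lipase inhibitor, 11.27 and 10.60 in DROSHA-sh cells and 10.50 and 9.99 in DICER1-sh cells.

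Interferon-response genes were separated upwards in 4 of 35 and downwards in 7 of 35, with a median of -0.03 that lay between -0.21 and 0.15 when each array was left out. OAS2, an antiviral oligoadenylate synthetase, had 8.86 and 8.96 in DROSHA-sh cells and 9.41 and 9.73 in DICER1-sh cells, and EPSTI1 7.09 and 7.32 in DROSHA-sh cells and 7.81 and 7.66 in DICER1-sh cells. IRF1, a transcription factor of the interferon response, lay the other way, with 10.73 and 10.71 in DROSHA-sh cells and 10.23 and 10.34 in DICER1-sh cells. Of 17 antigen presentation genes, 4 were separated upwards and 2 downwards, with a median of 0.01. Luminal breast genes were separated upwards in 3 of 17 and downwards in 5 of 17. ERBB3, a receptor of neuregulin, had 7.63 and 7.61 in DROSHA-sh cells and 8.38 and 8.15 in DICER1-sh cells. Its weaker probe (ILMN_1737993) overlapped at -0.13. KRT18, a keratin of simple epithelia, lay the other way, with 9.497 and 9.354 in DROSHA-sh cells and 8.02 and 8.91 in DICER1-sh cells.

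Ribosomal protein genes were separated upwards in 15 of 62 and downwards in 9 of 62, with a median of 0.02. RPS7, a protein of the small subunit, had 11.72 and 11.78 in DROSHA-sh cells and 11.11 and 11.04 in DICER1-sh cells, and its other probe (ILMN_2070072) gave a log2 difference of 0.86. RPS24 lay at -0.42, with 14.98 and 15.25 in DROSHA-sh cells and 15.58 and 15.50 in DICER1-sh cells, although its other probe (ILMN_2399893) gave 0.18. Heat shock and chaperone genes were separated in 3 of 23 each way, with HSF1, the heat shock transcription factor, at 7.74 and 8.33 in DROSHA-sh cells and 6.72 and 7.28 in DICER1-sh cells. Genes of the p53 response were separated upwards in 4 of 23 and downwards in 3 of 23. TIGAR, a p53-induced phosphatase, had 9.71 and 9.77 in DROSHA-sh cells and 9.11 and 9.21 in DICER1-sh cells.

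Collagens and matrix genes were separated upwards in 4 of 22 and downwards in 5 of 22, integrins and adhesion genes in 4 of 20 each way, and growth factors and receptors in 4 of 27 upwards and 7 of 27 downwards. LAMA4, a laminin chain, was below background on both DROSHA-sh arrays, at least 1.28-fold lower. The D-type cyclins and kinase inhibitors held 1 gene separated upwards, CDKN1A, and 3 downwards among 12. Keratins were separated upwards in 2 of 7 and the SPANX family, cancer-testis genes with near-identical copies, in 1 of 5.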
